A study of Caenorhabditis elegans with 24 samples.

Results

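The comparison is between daf-2;htz-1 and daf-2, whole young adult Caenorhabditis elegans that share a reduced insulin/IGF-1 receptor and differ at the locus of the histone variant H2A.Z. Its members were chosen by genotype label: 4 daf-2;htz-1 and 4 daf-2 libraries, 8 of the 24 libraries of the series, compared across the 14482 of 21689 genes whose mean value over all 24 libraries was at least 3. Every animal of the 8 libraries carried daf-2(e1370), and the daf-2;htz-1 animals also carried htz-1(bon101). The other genotypes of the series were the wild-type strain N2 (wt), htz-1(bon101) alone, and daf-2(e1370) animals that also carried daf-16(mu86), without or with htz-1(bon101), written daf-16;daf-2 or, with the latter allele, daf-16;daf-2;htz-1; each had 4 libraries. All were collected as young adults on day 1 of adulthood after growth at 20 °C on the bacterial strain OP-50-1. Which change bon101 makes in htz-1, and how many animals went into a library, the sources used here do not say.

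DAF-2 is the insulin/IGF-1 receptor of the worm. When its signal is weak, the FOXO transcription factor DAF-16 enters nuclei and turns on genes for stress resistance, immunity and fat metabolism, and the animals live long. H2A.Z, encoded by htz-1, replaces H2A in nucleosomes, often at promoters and enhancers, and has been linked to both active and poised genes. The comparison asks what an htz-1 allele does to the transcripts of animals in which insulin signalling is already reduced.

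Values are regularized log2 (rlog) values as the authors deposited them, and a difference of 1 is a 2-fold ratio. Genes with few reads are shrunk by this transformation, so their differences are understated. A gene was called when limma's adjusted p was below 0.05 in a fit of all 24 libraries. Correlations between libraries across genes were 0.980 to 0.991 within daf-2;htz-1, 0.953 to 0.977 within daf-2 and 0.873 to 0.941 between them, and the first principal component of the 8 libraries held 71.0% of the variance and parted the genotypes. In the fit 3 libraries stand apart. Library 1 of daf-2 was lower than the other 3 in collagen and sperm transcripts, and wt library 1 was also low in collagens. Library 3 of daf-16;daf-2;htz-1 had high values of DAF-16 targets, with mtl-1 at 8.87, 7.26, 14.51 and 7.28 and sod-3 at 2.31, 2.15, 7.23 and 3.40 in libraries 1 to 4. It enters the comparison through the shared estimate of spread and through the mean that sets which genes are tested, and with it left out of the fit 3053 genes were higher and 3008 lower, against 2950 and 2918 with it.

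Transcript levels of htz-1 itself (WBGene00019947, chromosome IV, 4446216 to 4446999 in the WBcel235 build) did not fall in animals with the allele. Its values were 11.18, 10.84, 10.67 and 11.30 in daf-2 libraries 1 to 4 and 11.35, 11.34, 11.35 and 11.28 in daf-2;htz-1 libraries 1 to 4. The groups overlapped, and the difference was 0.33 ± 0.16 (SE), adjusted p = 0.0946, called with quantile normalization, with array weights and without daf-2 library 4 (0.50, 0.32 and 0.43). These values do not check the genotype labels, since the lesion is not given. The receptor gene daf-2 (WBGene00000898, chromosome III, 2994514 to 3040846) gave 6.96, 6.57, 6.90 and 5.96 in daf-2 libraries 1 to 4 and 6.02, 6.38, 7.38 and 7.07 in daf-2;htz-1 libraries 1 to 4, a difference of 0.12 ± 0.31 (SE), adjusted p = 0.792. The FOXO gene daf-16 (WBGene00000912, chromosome I, 10750498 to 10776703) gave 10.23, 10.26, 10.48 and 10.30 in daf-2 libraries 1 to 4 and 9.94, 10.34, 10.22 and 10.18 in daf-2;htz-1 libraries 1 to 4, a difference of -0.14 ± 0.21 (SE), adjusted p = 0.603.

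In daf-2;htz-1, 2950 of the 14482 tested genes (20.4%) rose and 2918 (20.1%) fell, and 1904 and 1844 of these differed by at least 1. The median over all genes was 0.04. In 3032 genes (20.9%) all 4 daf-2;htz-1 libraries lay above all 4 daf-2 libraries, and in 2586 (17.9%) all lay below. Collagen and sperm genes led the falls, while genes for small secreted peptides, immune effectors, detoxification enzymes and histones were among the rises.

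Ranked among called genes with no overlap between the genotypes, the largest rises were mostly of genes known by sequence names alone. F33H12.7 (WBGene00045457, chromosome II, 2586078 to 2586911) was at 7.44, 4.07, 2.88 and 4.03 in daf-2 libraries 1 to 4 and 13.02, 13.03, 13.15 and 12.93 in daf-2;htz-1 libraries 1 to 4. The difference was 8.43 ± 0.69 (SE), adjusted p = 2.02e-09. D1086.9 (WBGene00008396, chromosome V, 14104270 to 14106330) was at 4.19, 0.79, 1.37 and 1.21 in daf-2 libraries 1 to 4 and 10.34, 10.72, 9.55 and 10.43 in daf-2;htz-1 libraries 1 to 4, a difference of 8.37 ± 0.85 (SE), adjusted p = 5.78e-08. F56A4.3 (WBGene00018911, chromosome V, 2453414 to 2456147) was at 2.68, 3.99, 2.44 and 2.76 in daf-2 libraries 1 to 4 and 11.23, 10.69, 10.71 and 10.88 in daf-2;htz-1 libraries 1 to 4, and it rose by 7.91. The highest daf-2 library was library 1 for F33H12.7 and D1086.9 and library 2 for F56A4.3. Lack of overlap was a condition of the ranking and is no further result. The other 9 of the 12 largest rises were F48C1.9 (7.09), the pseudogene WBGene00014732 (7.04), nlp-39 (6.46), B0205.13 (6.40), Y37H2A.14 (6.38), the saposin-like gene spp-27 (6.16), M03A1.8 (6.12), F56A4.10 (6.08) and irld-53 (6.07), a gene for an insulin/EGF-receptor-like L domain protein.

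Cuticle collagen genes made up 11 of the 12 largest falls, ranked under the same condition. The col-117 gene (WBGene00000691, chromosome IV, 8822962 to 8824195) was at 10.29, 12.94, 13.73 and 12.31 in daf-2 libraries 1 to 4 and 4.02, 5.54, 2.49 and 6.92 in daf-2;htz-1 libraries 1 to 4. The difference was -7.58 ± 0.83 (SE), adjusted p = 1.49e-07. The others were col-133 (-6.94), col-147 (-6.74), col-161 (-6.43), col-146 (-6.34), col-12 (-6.22), col-167 (-6.02), col-7 (-5.90), col-127 (-5.66), col-162 (-5.66), col-149 (-5.62) and, as the only gene outside the family, ZK180.5 (-5.44).

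**Figure D1:**
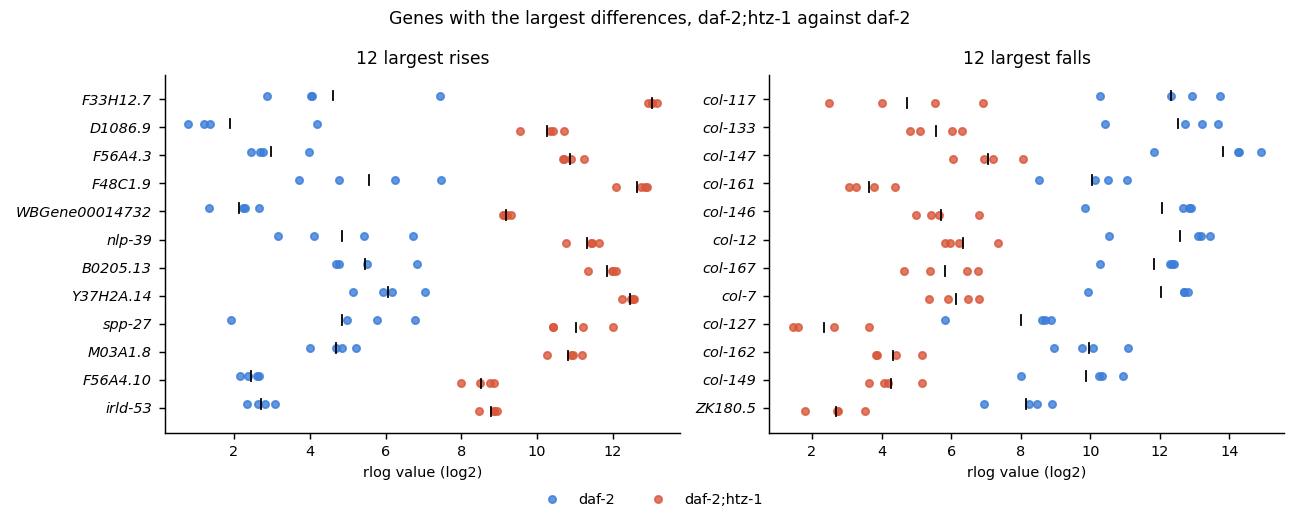
Values of the 12 largest rises (left) and 12 largest falls (right) in the 4 daf-2 (blue) and 4 daf-2;htz-1 (red) libraries, with the x axis in rlog (log2) units, points for libraries and black ticks for group means. The 24 genes were ranked among those whose groups do not overlap; in several collagen genes 1 daf-2 library, library 1, lies below the other 3.

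Among genes with a mean of at least 12, the 6 largest rises were of C17H12.8 and sysm-1, both known targets of the p38 immune pathway, and of Y53H1B.2, F23D12.11, F54E2.1 and D1086.3. C17H12.8 (WBGene00015933, chromosome IV, 6818703 to 6820575) was at 10.08, 10.38, 9.22 and 8.88 in daf-2 libraries 1 to 4 and 13.79, 14.16, 13.35 and 13.52 in daf-2;htz-1 libraries 1 to 4, a difference of 4.07 ± 0.33 (SE), adjusted p = 2.07e-09. The gene sysm-1 rose by 3.11, Y53H1B.2 by 2.93, F23D12.11 by 2.48, F54E2.1 by 2.48 and D1086.3 by 2.34. The 6 largest falls at this level were the collagens col-129 (-4.53), col-81 (-4.52) and col-139 (-4.12), then bcf-1 (-3.36), Y39B6A.1 (-3.32) and cpr-5 (-3.23), a cathepsin B-like protease gene. The gene col-129 (WBGene00000703, chromosome IV, 12108734 to 12110439) was at 16.31, 17.35, 17.87 and 17.82 in daf-2 libraries 1 to 4. Its highest daf-2;htz-1 library was at 13.22. This ranking, too, took only genes without overlap between the genotypes.

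The cuticle is a layered extracellular matrix whose collagens are made by the epidermis in stage-specific sets. Of 153 col genes, 111 passed the minimum mean, of which 78 were lower and 7 higher in daf-2;htz-1, with a median difference of -2.51. The mean over the 111 genes was 8.85, 10.08, 10.11 and 10.02 in daf-2 libraries 1 to 4 and 7.37, 7.53, 6.95 and 7.37 in daf-2;htz-1 libraries 1 to 4. All of the latter were below all of the former, and daf-2 library 1 was the lowest of its group. Without that library the median was -2.67. Members that rose included col-95 (2.76), col-158 (2.45) and col-53 (2.15).

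Among 11 adult cuticle collagen genes, all tested, 8 were lower and 3 not called, with a median of -1.88. Without batch 4 the count lower was 5, and without daf-2 library 1 the median was -2.58. The adult marker col-19 was at 15.73 to 17.32 in the daf-2 libraries and at 14.61, 14.81, 14.27 and 14.62 in daf-2;htz-1, and its fall was -1.76 ± 0.34 (SE), adjusted p = 0.000187. The fall of col-62 was -4.94. Of 5 tested furrow collagens, which pattern the rings of the cuticle, 1 was called lower and 4 were not called; dpy-10, dpy-7 and dpy-2 differed by 0.24, -0.52 and -0.26 and were not called. Of 26 tested hedgehog-related genes, which encode secreted epidermal proteins, 8 were lower and 2 higher, or 4 lower without daf-2 library 2, daf-2 library 4 or batch 4. The genes grd-6 and grl-16 of this list were above 6 in all daf-2 libraries and below 3 in all daf-2;htz-1 libraries; no other gene switched in that direction by those limits. These genes were picked out after their values were seen. In the opposite direction 6 genes did, F14F9.3, F56A4.10, F56H6.2, K10D11.2, T24A6.7 and WBGene00014732.

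Sperm transcripts were lower as a class. In hermaphrodites sperm are made before adulthood and their messages, such as those of the major sperm proteins that move the cell, come from spermatocytes. Of 31 msp genes, 29 were tested and all 29 were lower in daf-2;htz-1, with a median of -2.20. Their mean was 10.65, 12.77, 13.11 and 12.03 in daf-2 libraries 1 to 4 and 9.90, 9.49, 9.61 and 9.91 in daf-2;htz-1 libraries 1 to 4. The groups did not overlap, but daf-2 library 1 was closer to the daf-2;htz-1 libraries than to the other 3, and without it the median was -2.70. Reads of msp genes can be shared among near-identical copies, so single members are uncertain; msp-152, msp-31 and msp-10 differed by -2.88, -2.83 and -2.55. Of 57 other sperm genes tested, 44 were lower and 2 higher, with a median of -1.35. Without batch 2 the count of those lower was 29. They included the sperm TRP channel gene spe-41 (-2.81), spe-18 (-3.23) and nspd-5 (-2.15). The 2 that were higher were nspe-4 (1.96) and ssp-37 (0.94). In whole animals, fewer cells of a type and less RNA per cell cannot be told apart.

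Other germline lists moved less. Of 21 P granule and small RNA genes 7 were lower and 14 not called, among them the germ granule helicase gene glh-1 (-0.87), mut-16 (-0.92) and the RNA-dependent RNA polymerase gene ego-1 (-0.56). Of 22 meiosis genes 8 were lower and 14 not called, among them the recombinase gene rad-51 (-0.71), dsb-1 (-0.70) and rad-54.L (-0.60). With quantile normalization 4 meiosis genes were lower. The list medians were -0.38 and -0.35, against -1.35 for the sperm genes other than msp. The recombinase gene rad-51 was at 10.76, 10.72, 10.53 and 10.50 in daf-2 and 9.91, 9.97, 9.91 and 9.86 in daf-2;htz-1, and its ranges did not overlap. Of 29 oocyte and eggshell genes 4 were lower, a share below that of all genes, and 25 were not called; the polarity gene mex-6 fell by 1.14. Without batch 1, batch 3 or daf-2 library 1 the count lower was 1. Of 33 replication and cell cycle genes 6 were lower (18.2%) and 27 not called, or 1 lower without batch 3. Of 20 DNA damage genes 5 were lower (25%), led by the exonuclease gene exo-1 (-1.62), and 1, the cell death activator gene egl-1 (2.17), was higher. Both shares lower are near that of all genes.

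Genes for small secreted peptides rose. Of 30 flp genes, which encode FMRFamide-like neuropeptides, 24 were tested and 21 of them were higher and 3 not called, with a median of 1.42. Their mean was 4.98, 5.26, 4.96 and 5.41 in daf-2 libraries 1 to 4 and 6.79, 6.54, 6.73 and 6.83 in daf-2;htz-1 libraries 1 to 4. All 4 libraries with the allele were above all 4 without it. The gene flp-1 (WBGene00001444, chromosome IV, 9144705 to 9146128) was at 5.6, 5.30, 6.35 and 5.75 in daf-2 libraries 1 to 4 and 8.29, 8.16, 8.02 and 8.31 in daf-2;htz-1 libraries 1 to 4, a difference of 2.45 ± 0.25 (SE), adjusted p = 5.4e-08. The genes flp-11 and flp-8 rose by 3.00 and 2.37. Of 50 tested nlp and cnc genes, some of which encode antimicrobial peptides of the epidermis, 39 were higher and 1 lower, with a median of 1.15. They included cnc-4 (4.88) and nlp-51 (3.29), and the member that was lower was nlp-4 (-1.47).

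Of 28 tested neuron genes 11 were higher and 17 not called, with a median of 0.48 and library means of 6.54 to 6.80 in daf-2 and 7.16 to 7.31 in daf-2;htz-1. Without batch 4 the count higher was 7. The gene unc-31 (WBGene00006767, chromosome IV, 12773867 to 12788354), needed to release dense-core vesicles, was at 6.05, 6.27, 6.37 and 6.15 in daf-2 libraries 1 to 4 and 8.91, 9.03, 9.02 and 8.98 in daf-2;htz-1 libraries 1 to 4. The difference was 2.78 ± 0.20 (SE), adjusted p = 4.83e-10. The synaptobrevin gene snb-1 rose by 1.25 and the peptide-processing convertase gene egl-3 by 1.47. The level of this marker list moved with the peptide genes; its part in their rise was not tested.

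Genes for insulin-like peptides, the ligands of DAF-2, were mostly higher where they were called. Of 38 genes 20 were tested, 9 were higher and 11 not called, with a median of 0.99. The member ins-37, with a difference of -0.80 ± 0.33 (SE), adjusted p = 0.0544 and no call, was called lower with batch as a block (limma adjusted p = 0.0424), with centring, quantile normalization or array weights, and without batch 1 or daf-2 library 1. The gene ins-3 was at 6.26, 5.21, 4.64 and 5.47 in daf-2 and 7.38, 7.18, 7.14 and 7.36 in daf-2;htz-1, and its difference was 1.87 ± 0.28 (SE), adjusted p = 1.06e-05. It and ins-17 (2.1) and ins-28 (1.75) lay above the daf-2 range in every daf-2;htz-1 library. The gene ins-7, a ligand known to be lowered by DAF-16 activity, was at 3.29, 4.77, 2.54 and 3.14 in daf-2 and 4.41, 4.14, 4.20 and 4.86 in daf-2;htz-1 and overlapped, with a difference of 0.97 ± 0.55 (SE), adjusted p = 0.162; it was called without daf-2 library 2, without batch 2 and with array weights (1.41, 1.50 and 1.18). Of 20 insulin/IGF-1 signalling components, the receptor gene among them, 3 were higher (15%) and 1 lower (5%), shares below those of all genes. The higher ones included the kinase genes akt-2 (0.74) and cst-1 (0.86). The lower one was hcf-1 (-0.57), whose product is known as a repressor of DAF-16. In the dauer pathways, 3 of 15 genes were higher (20%) and 2 lower (13.3%), no more than the shares of all genes; with quantile normalization 4 were lower. The TGF-beta ligand gene daf-7 was at 2.69, 2.83, 2.27 and 3.26 in daf-2 and 5.19, 4.90, 4.36 and 5.47 in daf-2;htz-1, a difference of 2.22 ± 0.46 (SE), adjusted p = 0.000471, the SMAD gene daf-14 rose by 1.37 and the oxygenase gene daf-36 fell by 1.42.

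Most known DAF-16-induced genes that were called rose. Of 30 tested DAF-16-induced genes 15 were higher (50%), 3 lower (10%) and 12 not called, with a median of 0.74. Among all genes 20.4% were higher and 20.1% lower. The list comes from the literature on daf-2 mutants, in which these genes are already raised. The gene mtl-1, for a metallothionein (WBGene00003473, chromosome V, 6691371 to 6691863) was at 13.31, 12.75, 12.56 and 12.84 in daf-2 libraries 1 to 4 and 15.65, 15.21, 15.39 and 15.58 in daf-2;htz-1 libraries 1 to 4, a rise in all 4 libraries of 2.59 ± 0.88 (SE), adjusted p = 0.0204. Its standard error draws on all 24 libraries, and without library 3 of daf-16;daf-2;htz-1 the adjusted p was 7.58e-08. That library was set apart partly for its high mtl-1 value, so this p is not independent of that choice. With that library kept, the call ended without batch 1, 2 or 4, at adjusted p of up to 0.0783. The lysozyme gene lys-7 (WBGene00003096, chromosome V, 3481432 to 3482600) was at 8.98, 9.21, 9.10 and 9.27 in daf-2 libraries 1 to 4 and 12.84, 12.65, 12.67 and 12.63 in daf-2;htz-1 libraries 1 to 4, a difference of 3.56 ± 0.45 (SE), adjusted p = 1.05e-06. The linker histone gene hil-1 (2.02), the lipase gene lipl-4 (2.49) and gst-10 (1.24) also rose.

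The DAF-16 reporter sod-3, for a superoxide dismutase (WBGene00004932, chromosome X, 17092753 to 17094306) was at 8.69, 8.84, 8.80 and 9.17 in daf-2 libraries 1 to 4 and 9.35, 9.33, 9.27 and 9.35 in daf-2;htz-1 libraries 1 to 4. The ranges did not overlap, but the difference was not called, at 0.45 ± 0.65 (SE), adjusted p = 0.61. In a fit of the 8 libraries alone the adjusted p was 0.0224, and without library 3 of daf-16;daf-2;htz-1 it was 0.259. The heat shock gene hsp-12.6 was at 3.63, 5.11, 3.98 and 4.48 in daf-2 and 4.82, 4.05, 4.47 and 3.53 in daf-2;htz-1, a difference of -0.08 ± 0.42 (SE), adjusted p = 0.893. Of the members that fell, the aquaglyceroporin gene aqp-1 (WBGene00000169, chromosome II, 7235828 to 7238349) was at 9.97, 11.16, 11.23 and 10.54 in daf-2 libraries 1 to 4 and 7.40, 7.58, 6.86 and 7.34 in daf-2;htz-1 libraries 1 to 4. Its difference was -3.43 ± 0.39 (SE), adjusted p = 2.53e-07. The ceramidase gene asah-1 fell by 1.16, a call that ended without batch 3 (adjusted p = 0.0568).

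Of 14 tested genes known as repressed in daf-2 mutants, 2 were higher (14.3%), 4 lower (28.6%) and 8 not called in daf-2;htz-1. Among all genes the shares were 20.4% and 20.1%. The gene dod-17 was at 7.32, 7.91, 8.42 and 8.03 in daf-2 and 8.79, 8.47, 8.04 and 8.51 in daf-2;htz-1 and overlapped, with a difference of 0.53 ± 0.34 (SE), adjusted p = 0.221. The peptide transporter gene pept-1 (WBGene00003877, chromosome X, 6456872 to 6461767) was at 11.04, 12.03, 12.15 and 11.61 in daf-2 libraries 1 to 4 and 7.69, 8.25, 6.80 and 7.67 in daf-2;htz-1 libraries 1 to 4. It had the largest change of the list, -4.11 ± 0.30 (SE), adjusted p = 3.9e-10. The lysozyme gene ilys-5 (-1.80) and the nuclease gene nuc-1 (-1.52) were lower, and lys-10 (2.25) and the thermosensory guanylyl cyclase gene gcy-18 (1.70) were higher. In wt and htz-1 animals pept-1 averaged 12.81 and 9.48, and daf-2;htz-1 had the lowest mean of the 6 genotypes.

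**Figure D2:**
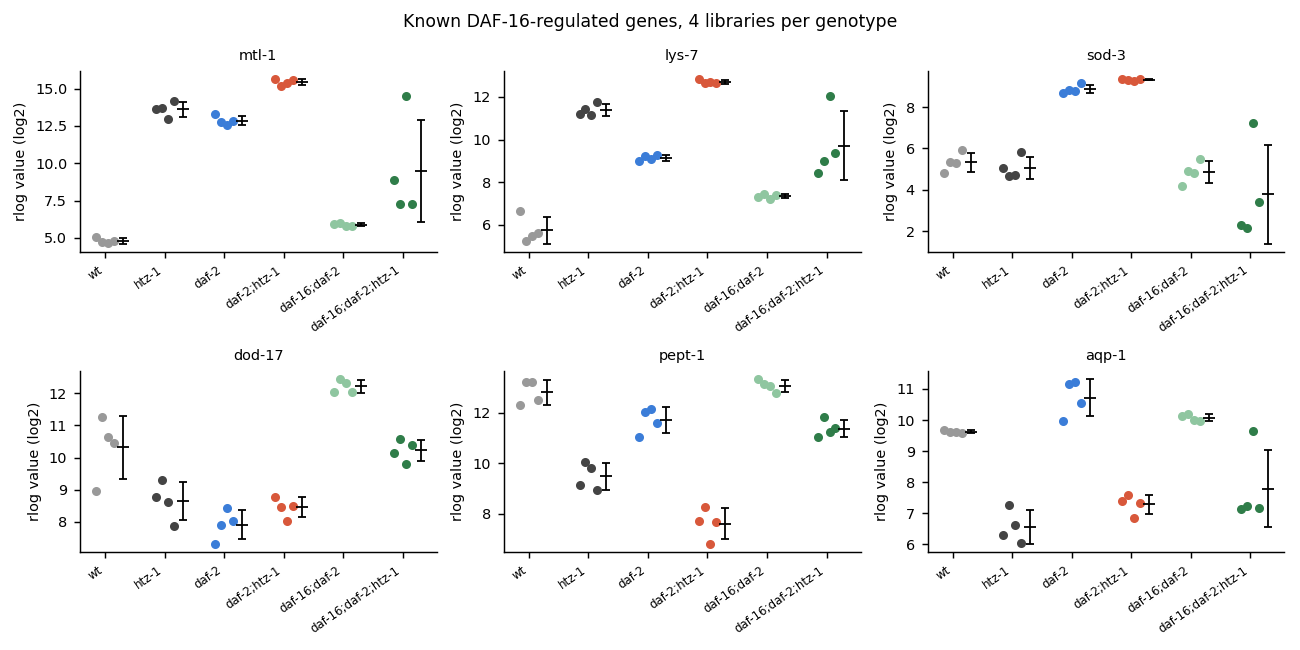
Values of 6 known DAF-16-regulated genes in the 4 libraries of each of the 6 genotypes, with the y axis in rlog (log2) units, points for libraries and bars for mean ± SD. From daf-2 to daf-2;htz-1, mtl-1 rose by 2.59 and lys-7 by 3.56 while pept-1 changed by -4.11 and aqp-1 by -3.43; library 3 of daf-16;daf-2;htz-1 is high in mtl-1, lys-7, sod-3 and aqp-1.

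Histone transcripts rose. Of 71 core histone genes 50 were tested, 30 of them higher and 2 lower, with a median of 1.22 and library means of 6.03, 5.23, 5.53 and 5.57 in daf-2 and 7.13, 7.12, 6.85 and 6.97 in daf-2;htz-1. No library of one genotype reached the range of the other. The gene his-61 (WBGene00001935, chromosome IV, 7485834 to 7486217) was at 6.30, 5.65, 5.87 and 5.93 in daf-2 and 9.57, 9.34, 9.41 and 9.38 in daf-2;htz-1, a difference of 3.49 ± 0.27 (SE), adjusted p = 8.38e-10. It, his-57 (3.58) and his-58 (3.12) had the smallest p of the list. Near-identical histone copies share reads, his-58 had the same values as another gene, and single members are therefore uncertain. The 2 members that were lower were his-70 (-1.53), a gene for an H3 variant, and his-40 (-0.76); the first call ended without batch 3 or 4 or daf-2 library 3 or 4, and the second under 8 of the settings tried. Of 8 tested linker histones 3 were higher and 5 not called, the former including hil-7 (2.1), while his-24 (0.33) was not called. Replication-dependent histone messages lack poly(A) tails, and SMART-Seq2 primes from such tails. The rRNA genes, which also lack long tails, were higher with the allele, 5 of 6 called, with library means of 10.59 to 11.92 in daf-2 and 12.85 to 13.30 in daf-2;htz-1. This list and the mitochondrially encoded genes (5 of 18 higher) were added after values were seen. Whether capture of such RNAs has a part in the histone values was not tested.

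Chromatin factor genes changed little. Of 15 H2A.Z deposition and related genes 2 were lower and 13 not called, and with quantile normalization 3 were higher. Of 10 dosage compensation genes none was called by limma and 0 had an unadjusted p below 0.05, and of 16 Polycomb and histone methylation genes 1 was lower. Of 23 heterochromatin and synMuv genes 5 were lower, among them mes-3 (-1.03), and 2 were higher. Without batch 3 the last list had 2 lower. These shares are near or below the 20.4% and 20.1% of all genes.

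Immune response genes rose more often than they fell, apart from the C-type lectins. The p38 immune response list also holds genes not specific to that pathway, such as a small heat shock gene. Of its 15 tested genes 11 were higher and 4 not called, with a median of 0.91. Beside C17H12.8 and sysm-1 the higher members included irg-5 (3.13). The gene irg-5 was at 2.74, 3.27, 3.25 and 3.59 in daf-2 and 6.76, 6.43, 6.32 and 5.85 in daf-2;htz-1, with no overlap. Of 40 tested lysozyme, saposin-like and antibacterial factor genes 19 were higher and 4 lower. Those that rose included abf-5 (2.42), abf-6 (2.94) and ilys-2 (2.87), and those that fell included spp-8 (-1.26). The C-type lectins went both ways, 26 higher (23.2%) and 29 lower (25.9%) of 112 tested, shares near those of all genes. They ran from clec-210 (4.83), clec-146 (2.64) and clec-160 (1.83) to clec-227 (-3.48), clec-218 (-3.14) and clec-53 (-2.27). The gene clec-210 was at 3.49, 2.64, 2.41 and 2.71 in daf-2 and 7.71, 7.36, 7.87 and 7.63 in daf-2;htz-1.

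Detoxification families rose more often than they fell. Of 62 cytochrome P450 genes tested 27 were higher and 5 lower, with a median of 0.68. The gene cyp-13A5 (WBGene00011672, chromosome II, 9798277 to 9800362) was at 5.44, 5.85, 5.46 and 4.86 in daf-2 libraries 1 to 4 and 9.64, 9.60, 9.51 and 9.27 in daf-2;htz-1 libraries 1 to 4. It rose by 4.1 ± 0.31 (SE), adjusted p = 7.11e-10, and cyp-13A7 (4.26) and the abundant cyp-14A5 (2.78) rose as well. Of 40 glutathione S-transferase genes 19 were higher and 4 lower, including gst-34 (3.63), gst-24 (2.26) and gst-5 (1.50). Of 60 UDP-glucuronosyltransferase genes 23 were higher and 12 lower. Without batch 2 the count lower was 6. The rises of ugt-25 (2.45), ugt-32 (2.60) and ugt-1 (1.98) stood against the fall of ugt-64, at 11.56, 11.07, 11.16 and 10.77 in daf-2 and 8.09, 8.36, 8.09 and 8.18 in daf-2;htz-1.

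Small heat shock protein genes rose, and few genes of the other stress lists were called. Of 13 small heat shock genes 9 were higher and 4 not called, with a median of 1.45. The gene hsp-43 was at 10.65, 10.72, 10.53 and 10.65 in daf-2 and 12.11, 11.99, 12.12 and 12.15 in daf-2;htz-1, a difference of 1.45 ± 0.11 (SE), adjusted p = 8.91e-10. The heat-inducible pair hsp-16.48 and hsp-16.49, which share the same values, rose by 2.32 and the inducible chaperone gene hsp-70 by 1.51. Of 21 cytosolic chaperone genes 3 were higher, of 20 ER stress genes 1 was higher and 1 lower, and of 13 mitochondrial stress genes none was called by limma and 1 had an unadjusted p below 0.05, with medians of 0.03, -0.08 and -0.01. Of 79 ribosomal protein genes 1 was higher and of 32 proteasome genes 1 was lower, and the others were not called. With batch as a block, 5 ribosomal protein genes were higher, and 2 ER stress genes were higher and 2 lower. With quantile normalization, 6 ribosomal protein and 6 proteasome genes were higher. Among antioxidant enzymes 3 of 8 were higher, including sod-4 (1.16), and 1 was without batch 2.

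Among families of protein turnover and regulation, F-box and nuclear hormone receptor genes rose more often than they fell. Of 163 tested F-box genes 64 were higher and 12 lower, from fbxa-99 (4.99) to fbxa-84 (-2.54), and 41 were higher without batch 3. Of 81 BATH, BTB and Skp1-related genes 14 were higher and 15 lower, shares near those of all genes, with 9 higher without batch 3, from skr-5 (4.12) to bath-19 (-2.40). Of 178 nuclear hormone receptors 62 were higher and 8 lower, among them nhr-11 (3.45) and nhr-206 (2.13). Without batch 4 the count of receptors higher was 39. The gene nhr-11 was at 5.75, 4.75, 5.48 and 4.90 in daf-2 and 8.60, 8.64, 8.79 and 8.66 in daf-2;htz-1. Of 53 homeobox genes 10 were higher (18.9%, near the share of all genes) and 1 lower. The worm PAX6 gene vab-3 (1.90) was in the first set, and 6 homeobox genes were higher with quantile normalization or without batch 2.

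Digestive and metabolic genes moved in both directions. Of 27 intestine genes 12 were lower and 4 higher, with library means of 10.84 to 11.20 in daf-2 and 10.17 to 10.67 in daf-2;htz-1. Beside pept-1 and cpr-5, the acid phosphatase gene pho-1 (-2.73) and the proton exchanger gene nhx-2 (-1.79) fell, while the gut esterase gene ges-1 (1.11) rose. Among aspartyl proteases 3 rose and 3 fell of 12 (25% each, near the shares of all genes). The genes asp-17 (3.21) and asp-4 (1.02) were higher and asp-1 (-1.49) lower. Of 6 yolk protein genes, which the intestine makes for oocytes, 1 was lower. It was vit-1, at 15.70, 14.73, 15.60 and 14.56 in daf-2 and 12.65, 13.45, 12.25 and 12.54 in daf-2;htz-1, a difference of -2.43 ± 0.48 (SE), adjusted p = 0.000276. The abundant vit-2 and vit-6 differed by 0.96 and 0.92 (adjusted p = 0.0702 and 0.0612) and were called with quantile normalization, no intensity trend, robust prior variance, array weights or without daf-2 library 1.

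Fatty acid enzyme genes moved both ways. Of 16 desaturase and elongase genes 5 were higher and 5 lower (31.2% each), against 20.4% and 20.1% of all genes. The desaturase gene fat-2 was at 13.45, 13.44, 13.62 and 13.60 in daf-2 and 14.94, 15.04, 14.73 and 14.88 in daf-2;htz-1, a difference of 1.37 ± 0.17 (SE), adjusted p = 7.62e-07, and fat-1 (1.02) and fat-5 (1.88) rose too. The elongase gene of branched-chain fatty acids, elo-5 (-1.79), and elo-2 (-0.91) fell. Of 63 lipid breakdown genes 17 were lower and 7 higher, the former including acdh-8 (-2.91) and acs-18 (-2.44). Of 28 autophagy and lysosome genes 10 were higher and 3 lower. The autophagy receptor gene sqst-1 (1.74) and the autophagosome membrane gene lgg-1 (1.17) were both higher.

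Most muscle and pharynx markers that were called were higher. Of 11 tested pharynx genes 6 were higher (54.5%) and 1 lower (9.09%), with library means of 4.33 to 4.55 in daf-2 and 5.71 to 5.89 in daf-2;htz-1. The pharyngeal myosin gene myo-1 was at 4.11, 3.61, 4.32 and 3.60 in daf-2 and 7.13, 6.99, 7.33 and 7.16 in daf-2;htz-1, a difference of 3.24 ± 0.63 (SE), adjusted p = 0.000213. Its partner myo-2 (2.37) and the gland genes phat-3 (2.79) and phat-6 (2.94) rose too. Of 32 body wall muscle genes 9 were higher (28.1%, near the 20.4% of all genes) and 22 not called, with a median of 0.17. The higher ones included the troponin genes tnc-2 (1.46) and tni-3 (1.13). The 1 that was lower (3.12%) was the perlecan gene unc-52 (-1.31). The part of tissue proportions in these values was not tested.

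**Figure D3:**
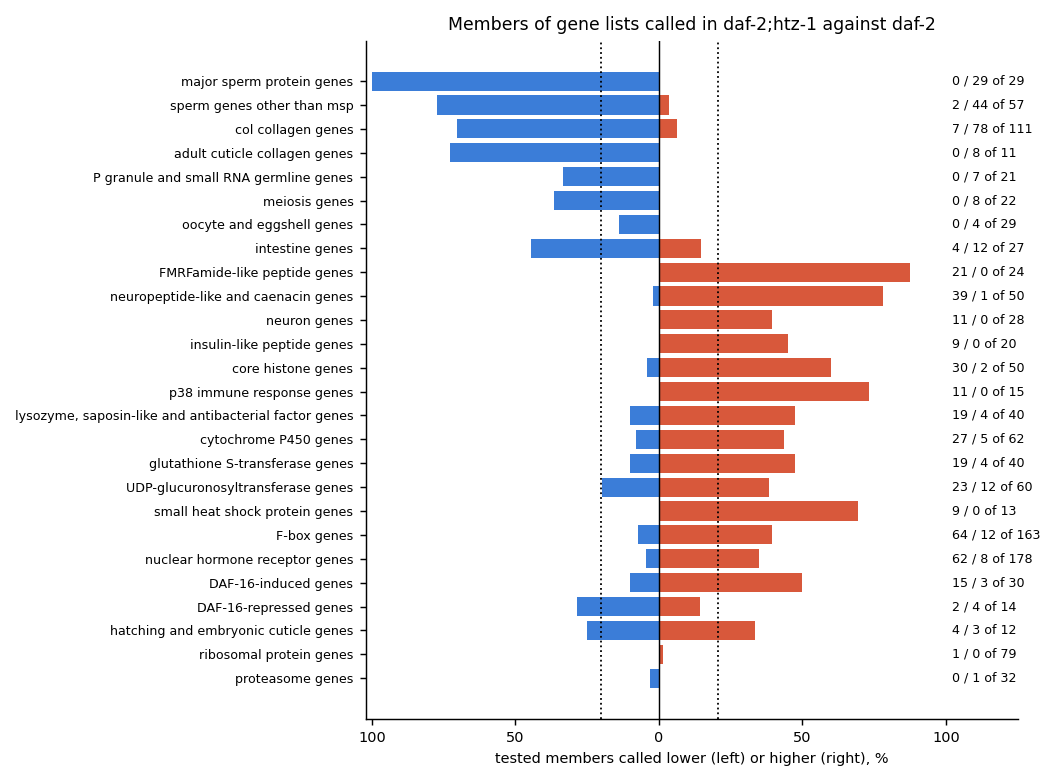
Share of the tested members of 26 gene lists called lower (blue, left) or higher (red, right) in daf-2;htz-1 against daf-2, with the counts of higher and lower members at the right edge. The dotted lines mark the shares of all genes, 20.1% lower and 20.4% higher; the sperm and collagen lists lie far past the left line and the peptide, small heat shock and p38 lists past the right one.

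Calls were unevenly spread over the chromosomes. On X 23.7% of 1956 tested genes were higher and 9.41% lower, with a median of 0.22, and on V 27.7% of 2777 were higher and 18.3% lower, with a median of 0.13. On I 14.6% of 2411 were higher and 24.4% lower, and on IV 20% of 2507 were higher and 25.4% lower.

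The same allele in a wt background gave a reference for this effect, with no library in common. Of the 14482 genes 3830 (26.4%) were higher and 3552 (24.5%) lower in htz-1 than in wt. Of these, 2004 genes were higher in both comparisons, 67.9% of the list from the daf-2 background and 52.3% of that from wt, and 2259 were lower in both, 77.4% and 63.6%. Across genes the differences had a Pearson's r of 0.781 and a Spearman's rho of 0.7475, as a description over genes that share libraries within each comparison. Opposite calls were made for 59 genes higher and 39 genes lower in daf-2;htz-1.

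Of the genes tested, 1126 (7.78%) had a more positive effect of the allele in the daf-2 background than in wt and 806 (5.57%) a more negative one. These counts moved with the batches used: without batch 4 they were 278 and 350, without batch 2 they were 597 and 432, and without batch 3 they were 718 and 500. The excess of positive differences also depends on scaling. With each library centred on its median the counts were 1014 and 899, and with quantile normalization 1074 and 1019. The largest positive differences were those of D1086.9 (7.91), F56A4.3 (6.66), F33H12.7 (6.07) and irld-53 (5.74). Each is also among the largest rises, but the rise from daf-2 to daf-2;htz-1 is itself part of this contrast. The gene irld-53 was at 2.81, 3.07, 2.34 and 2.64 in daf-2 and 8.86, 8.46, 8.93 and 8.87 in daf-2;htz-1, against 8.85, 7.12, 6.80 and 7.35 in wt and 7.94, 7.89, 7.56 and 8.07 in htz-1, so that it was low in daf-2 and high in the other 3 groups.

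The largest negative differences were those of hch-1, clec-266, pud-3 and pud-4. The gene hch-1, for a protease of hatching (WBGene00001828, chromosome X, 14696411 to 14699977) was at 1.97, 2.23, 2.28 and 2.15 in wt and 10.68, 11.41, 10.84 and 10.40 in htz-1 libraries 1 to 4, against 3.79, 3.33, 1.82 and 3.30 in daf-2 and 4.06, 5.59, 5.98 and 0.86 in daf-2;htz-1. Of these 4 groups it was high in htz-1 alone, and the effects differed by -7.62 ± 0.92 (SE), adjusted p = 6.86e-06. In the daf-2 background the difference was 1.06, adjusted p = 0.203 with limma, and 2.15, called, without daf-2;htz-1 library 4. The lectin gene clec-266 rose by 9.0 in wt and by 1.79 in daf-2 background, the latter call ending without batch 2 or 3 (values of 1.23 and 1.66). The genes pud-3 and pud-4, named for protein levels raised in daf-2 mutants, rose by 4.83 and 5.57 in the wt background, against -2.33 and -0.87 here, where pud-3 was called and pud-4 was called in a fit of the 8 libraries alone. The daf-2 libraries had pud-3 at 10.19, 9.57, 9.49 and 9.24 and the wt libraries at 4.27, 4.13, 4.19 and 4.32. The DAF-16 target mtl-1 had an effect of 8.82 in wt, and its smaller rise in daf-2 differed by -6.23 ± 1.24 (SE), adjusted p = 0.00166.

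For most of 12 listed genes for hatching and the embryonic cuticle, the effect of the allele differed between the wt and daf-2 backgrounds. Of the 12, 11 were higher with the allele in the wt background and 1, col-109, not called, with a median of 4.00. In the daf-2 background 4 were higher and 3 lower, with a median of -0.13, and for 10 of the 12 the difference was called negative. Without batch 4 the effect in daf-2 had 5 higher and 1 lower with a median of 0.46, its sign turned, and the difference from wt was called negative for 9. Without batch 1 or batch 2, 2 were higher in daf-2. Their mean was 4.80, 5.58, 5.72 and 5.28 in wt and 9.34, 9.62, 9.28 and 9.24 in htz-1 libraries 1 to 4, and 5.45, 5.40, 5.43 and 5.84 in daf-2 and 5.80, 5.88, 5.88 and 4.62 in daf-2;htz-1 libraries 1 to 4. The 4 htz-1 libraries alone were high among these 16, and daf-2;htz-1 library 4 was the lowest of its group. The sources used here do not say how many embryos the animals held. The ZP-domain genes noah-1 and noah-2 of the embryonic apical matrix rose by 5.16 and 4.13 in wt and differed by -0.11 and -0.15 in daf-2. The lipocalin gene lpr-3 and the matrix gene dex-1 rose by 5.90 and 2.42 in wt and differed by -0.39 and -0.19 in daf-2.

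The early cuticle collagen gene dpy-14 was called in both backgrounds, by 8.5 in wt and 2.61 in daf-2, and che-14 by 1.77 and 1.33. The collagen gene sqt-3 rose by 2.45 in wt and fell by 1.73 in daf-2, and sym-1 differed by 4.24 and -1.17. The falls of sqt-3 and sym-1 and the rises of dpy-17 (0.85) and let-653 (0.88) in daf-2 each ended in at least 1 setting that left out a batch or library. The last member, col-109, fell by 2.81 in daf-2 and differed by -1.25, with no call, in wt. Early embryo genes gave 3 higher (23.1%) and 1 lower (7.69%) of 13 in daf-2, near or below the shares of all genes. The lower one was the epidermal factor gene elt-1 (-1.02). In wt 6 of 13 were higher, and the difference between backgrounds was called negative for 7, with a median of -0.91. The difference was also called negative for 3 of 5 furrow collagens and 6 of 20 larval moulting genes, and positive for none of them. Median effects of the allele in wt were 2.38 and 0.55 for these 2 lists.

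In the msp and flp lists the called differences between these backgrounds were all positive, with effects less negative or more positive in daf-2. The msp list had a median of -4.09 in wt and -2.20 in daf-2, and for 16 of 29 genes the difference was called positive. The flp list had 9 of 24 genes higher in wt and 21 in daf-2, with the difference called positive for 5. Collagen genes had a median of -2.39 in wt, close to that in daf-2, and the difference was called for 6 genes in the positive and 3 in the negative direction out of 111. Core histone genes had 34 of 50 higher in wt, with a difference called for 4, all negative. Among all genes 7.78% had a positive and 5.57% a negative difference, so the collagen and core histone counts were near or below those shares. Without batch 4 the positive count over all genes fell from 1126 to 278, and the msp and flp counts were not redone without that batch.

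**Figure D4:**
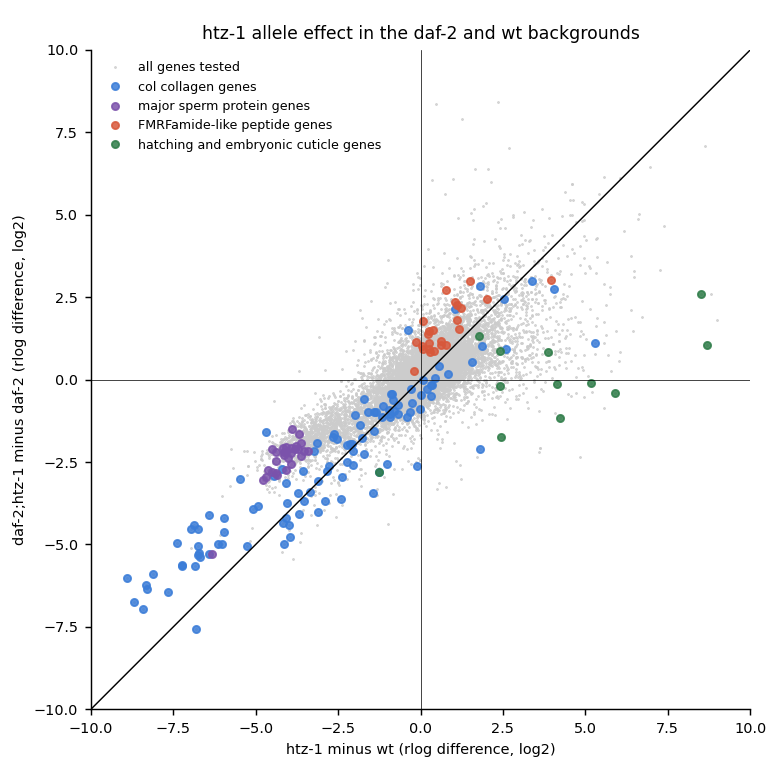
Effect of the htz-1 allele on 14482 genes in the wt background (x axis, htz-1 minus wt) and in the daf-2 background (y axis, daf-2;htz-1 minus daf-2), both as rlog differences in log2 units, with the diagonal marking equal effects. Collagen and msp genes lie at the lower left, flp genes mostly above the diagonal, and hatching and embryonic cuticle genes to the right near the x axis.

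**Figure D5:**
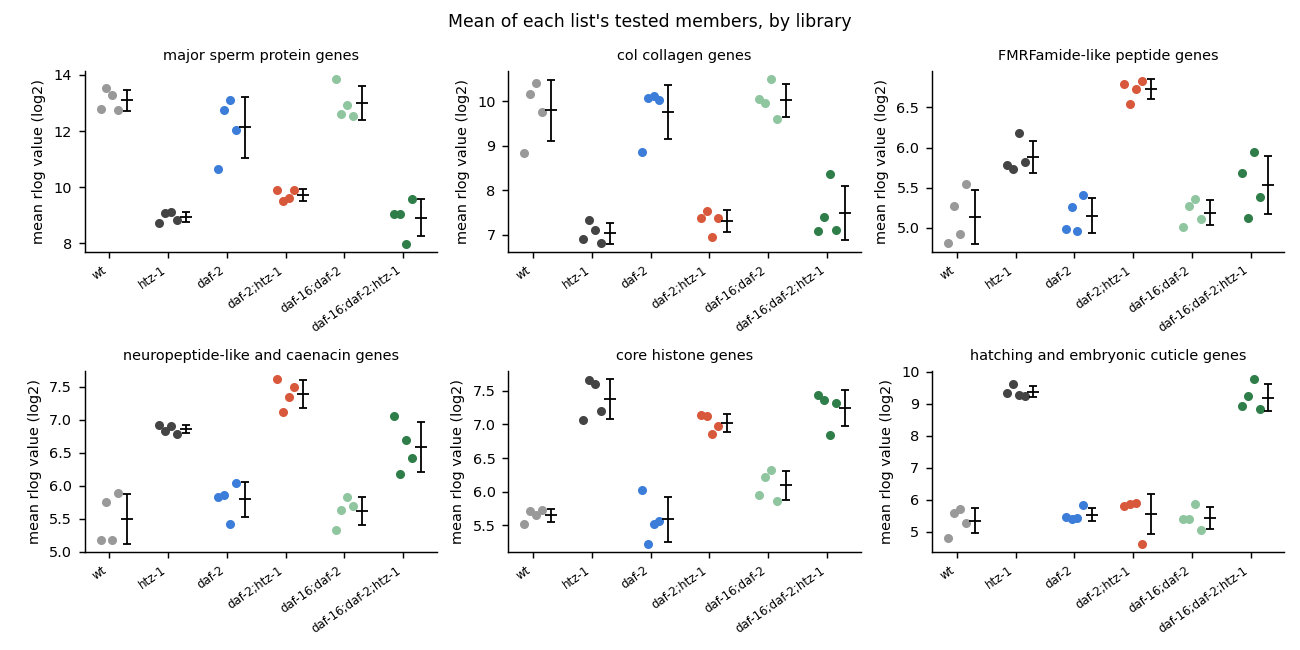
Mean rlog value of the tested members of 6 gene lists in each library, with points for the 4 libraries of a genotype and bars for mean ± SD. The flp list is highest in the 4 daf-2;htz-1 libraries, from 6.54 to 6.83, and the hatching list is high in daf-16;daf-2;htz-1 and in htz-1 but not in daf-2;htz-1.

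In animals that also carried daf-16(mu86), the effect of the htz-1 allele differed again. The effect was more positive in the daf-2 than in the daf-16;daf-2 background for 2389 genes (16.5%) and more negative for 1449 (10%). The split depends on scaling: with each library centred on its median the counts were 1778 and 2256, with quantile normalization 2029 and 2047, and the median of all genes moved from 0.11 to -0.17 with centring and -0.04 with quantile normalization. Without library 3 of daf-16;daf-2;htz-1 they were 2498 and 1511, without batch 4 they were 1506 and 838, and the negative count was 894 without batch 2 and 757 without batch 3. Hatching genes were 11 of 12 higher in that background, with a median of 3.58, and flp genes 6 of 24, with a median of 0.19.

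The 4 largest differences from the daf-16;daf-2 background were those of D1086.9, WBGene00014732, F33H12.7 and the pseudogene WBGene00020598 on the positive side, at 6.73, 5.62, 5.25 and 5.21, and without library 3 of daf-16;daf-2;htz-1 at 8.14, 6.33, 5.24 and 6.06. On the negative side hch-1, clec-266, F45D11.14 and fbxc-51 were at -7.35, -6.61, -6.29 and -6.16, and without that library at -7.32, -6.68, -5.55 and -6.09. The DAF-16 targets sod-3 and lys-7 differed by 1.53 and 1.19 with all libraries, at limma adjusted p = 0.227 and 0.165. Without that library they differed by 2.68 and 1.97, at limma adjusted p = 0.000254 and 0.000203. The target mtl-1 was called in neither fit, at -1.01 (limma adjusted p = 0.581) with all libraries and 0.67 (0.211) without that library. That library was set apart for its high values of these same targets, so their p-values without it are not independent of that choice. The gene pept-1 differed by -2.40 with all libraries and by -2.45 without that library.

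Some of the values are uncertain because the library type does not mark strand. The genes sod-3, aqp-1, daf-36, daf-14, col-147, col-149, col-53, col-158, F23D12.11, clec-266, clec-210, flp-11, his-57, gst-5, ugt-25, ugt-64, sod-4, pho-1, asp-4, vit-2, tnc-2, unc-52, fat-5, elo-5, fbxa-99, skr-5, sym-1 and rad-54.L overlap an exon of a coding gene on the opposite strand.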

How the data were processed

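RNA of whole young adult worms was measured with SMART-Seq2 libraries, which do not mark strand. The authors deposited regularized log2 (rlog) values of 21689 genes in 24 libraries, 6 genotypes with 4 each. Per the submitters' processing notes, the tools were bcl2fastq 2.20 and kallisto 048.0 and the build WBcel235; settings, and how transcripts were summed to genes, are not stated in the sources used. Symbols, positions and types came from the Ensembl annotation of WBcel235, matched by identifier; 20315 genes had a symbol and 1374 are known by identifier. No counts were used, so depth is unknown and no counting interval is given. Of the genes tested, 95 had the same 24 values as another gene, as near-identical copies can.

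Groups were taken from the labels. The 14482 genes with a mean of at least 3 were fitted with limma 3.58.1 in R 4.3.3, with 6 group means over all 24 libraries, 18 residual degrees of freedom, an intensity trend, no batch term, and Benjamini-Hochberg adjustment over all genes at a threshold of 0.05. The script was tested on simulated data. Differences between backgrounds are contrasts of the same fit. Whether replicates came from separate cultures is not given, so a p-value here reflects library-to-library spread, which may be technical. The labels name 4 batches, each with 1 library per genotype, so equal replicate numbers pair the libraries through a labelled batch, whose nature is not given. Deviations from the group means of daf-2;htz-1 and daf-2 libraries of 1 batch correlated across genes at 0.0052, -0.2645, -0.075 and 0.0287; over all genotypes the mean was 0.0504 within and -0.0163 between batches.

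The members and gene lists were chosen with earlier results of these data known, and the lists of rRNA and mitochondrially encoded genes after values were seen. Named genes were the 12 largest rises and falls among non-overlapping called genes, the 6 largest of each with a mean of at least 12, up to 3 called members per direction of a list by smallest p, all members of lists with at most 12, the 4 largest differences per direction between backgrounds, and 8 genes of the pathway; not all of these are printed. Alternatives were a batch block, no filter or a minimum mean of 5, centring, quantile normalization, other prior variances, array weights, a fit of the compared groups, and leaving out each batch and library. Leaving out wt library 1 with daf-2 library 1, and library 3 of daf-16;daf-2;htz-1, was added after seeing the data.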

Additional observations from a re-analysis of the deposited data

Results flagged for a closer look

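Of 510 groups of 4 libraries checked, 24 had 1 library far from the other 3, 4.71%, where chance alone gives about 1 in 20. Library 1 of daf-2 accounts for most. It was low in the collagens col-146 (9.85, others 12.67 to 12.90), col-12 (10.54, others 13.11 to 13.43), col-167 (10.27), col-7 (9.93), col-127 (5.81) and col-62 (11), in the means of the col list (8.85, others 10.02 to 10.11) and of the adult collagens (11.17, others 12.87 to 13.10), and in nlp-4 (7.32), abf-6 (3.1) and nas-11 (9.82). It was high in D1086.9 (4.19, others up to 1.37), clec-266 (9.10, others 5.78 to 6.30) and pud-4 (9.49). Without it and wt library 1, 2867 genes were higher and 2827 lower. Library 2 of daf-2 was high in daf-36 (10.04, others 9.11 to 9.16).

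Library 4 of daf-2 was low in nhr-206 (4.58) and in the mean of the genes lower in daf-2 mutants (7.59), and high in the mean of the hatching genes (5.84), while library 4 of daf-2;htz-1 was low in that mean (4.62, others 5.80 to 5.88) and in htz-1 itself (11.28, others 11.34 to 11.35). Single daf-2;htz-1 libraries were also lower than the others in B0205.13 (11.34) and irld-53 (8.46), both library 2, in F45D11.14 (12.51, library 3) and in rad-54.L (9.43, library 1).

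The effect of the htz-1 allele differed between backgrounds by limma's test of that difference, at an adjusted p below 0.05. Against wt it was more positive for 1126 genes and more negative for 806, at most by 7.91 in D1086.9, 6.66 in F56A4.3, 6.07 in F33H12.7 and 5.74 in irld-53, and by -7.62 in hch-1, -7.20 in clec-266, -7.16 in pud-3 and -6.45 in pud-4. Against daf-16;daf-2 it was more positive for 2389 genes and more negative for 1449.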

How the results depend on the processing

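With batch as a replicate block, 2993 genes were higher and 2945 lower, of which 2892 and 2858 were among the 2950 and 2918 called without it, and the pairing changed the call of 1 gene printed here, ins-37, and of no other. Counting differences of at least 1 leaves 1904 and 1844. Leaving out single batches or libraries gave 2214 to 2852 higher and 2191 to 2777 lower, fewer libraries being fitted. The count of genes with a more positive effect in daf-2 than in wt was 1905 with array weights and 278 to 1296 with a batch or library left out, and of those more negative 350 to 805. Against daf-16;daf-2 the counts were 3683 and 2590 with array weights; centring gave 2256 negative, and leaving out gave 1506 to 2610 and 757 to 1582. The causes of these moves were not tested. Differences that were not called changed sign in 7 genes: daf-2 ran from -0.22 to 0.47, hsp-12.6 ran from -0.50 to 0.24, dpy-7 ran from -1.31 to 0.78, dpy-2 ran from -0.69 to 0.10, noah-1 ran from -0.32 to 0.28, noah-2 ran from -0.37 to 0.21 and lpr-3 ran from -1.54 to 0.64, with a batch or library left out. Of 175 printed genes called, 9 lost the call under at least 1 of 23 alternatives; those were mtl-1, clec-266, sqt-3, sym-1, dpy-17, let-653, asah-1, his-70 and his-40. Of the 22 not called, htz-1, sod-3, ins-7, ins-37, hch-1, pud-4, F45D11.14, fbxc-51, vit-2 and vit-6 were called under at least 1. Depth is unknown, so what it limits cannot be given. The filter moved lists rich in low values, such as the F-box list, with 36 higher at a minimum mean of 5 and 100 with no filter.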

Other observations

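Some further gene groups also held members that changed. Among all genes 20.4% were higher and 20.1% lower. Of 19 tested genes of trehalose, glyoxylate and glucose synthesis 5 were higher (26.3%) and 2 lower (10.5%) in daf-2;htz-1, with a median of 0.26. These shares are near or below those of all genes. The trehalase gene tre-5 was at 4.27, 5.01, 4.08 and 4.20 in daf-2 and 6.89, 7.02, 6.80 and 6.24 in daf-2;htz-1, the alcohol dehydrogenase gene sodh-2 at 4.26, 5.11, 3.85 and 3.43 in daf-2 and 6.79, 6.27, 6.55 and 6.20 in daf-2;htz-1, and in both every daf-2;htz-1 library was above every daf-2 library. The glycerol phosphate dehydrogenase gene gpdh-2 rose by 0.95 and the aldehyde dehydrogenase gene alh-1 fell by 0.54. Of 24 astacin protease genes 8 were higher (33.3%) and 2 lower (8.33%), among them nas-11 (1.48), nas-5 (1.38) and nas-20 (-1.50). Without batch 3 the count higher was 3. Of 14 Argonaute and RNAi genes 4 were lower (28.6%), none of them without batch 3 (limma). The 1 that was higher (7.14%) was sid-2 (1.28), needed to take up double-stranded RNA from the gut.

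Of 20 tested larval moulting genes 6 were lower (30%) and 2 higher (10%), or 3 lower without batch 2. The hedgehog-related gene grl-21 was at 5.64, 8.99, 7.83 and 9.15 in daf-2 and 4.91, 3.50, 2.99 and 3.49 in daf-2;htz-1, with no overlap, the moulting receptor gene nhr-23 fell by 0.94 and peb-1 rose by 1.35. Of 19 hypodermis genes 7 were lower (36.8%) and 2 higher (10.5%), or 4 lower without batch 2. The collagen gene dpy-4 differed by -3.75 and the STAT factor gene sta-2 by 1.62. By annotated type, 31% of 449 pseudogenes were lower and 12.2% higher, while 38.1% of 42 lincRNA genes were higher and 7.14% lower.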
